A study of Homo sapiens with 5 samples.

Results

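Peaks of chromatin immunoprecipitation and sequencing (ChIP-seq) lay unusually close together in 2 blocks of human chromosome 3, one beside the centromere and one on the long arm. A peak belonged to the pericentromeric block when its midpoint lay between positions 86000000 and 91000000, and to the long-arm block when it lay between 147000000 and 154000000, in the coordinates of build hg19. The blocks were selected on the density of antibody 1 peaks called against input, so the values of that list there are a description and support nothing. Over 6 peak lists the blocks held 19753 of 1150695 peaks, against 85251 in the rest of chromosome 3. By library, these were 7248 of 67537 antibody 1 peaks, 7760 of 952633 antibody 2 peaks and 4745 of 130525 RNA polymerase II peaks.

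The chromatin came from U2932, an established line of human lymphoma cells grown without treatment. It was precipitated with antibody 1 or antibody 2, a pair of non-commercial rabbit polyclonal antibodies against PRDM11, or with the commercial antibody sc-899X against RNA polymerase II. Rabbit IgG and unprecipitated input served as controls, and the names of the lists give each ChIP library 1 list called against input and 1 called against IgG, both at q 0.1. All 5 libraries came from this 1 line and none had a replicate, so no test between libraries was possible. Intervals are exact at the 95% level; they take peaks to be independent of each other and include no error but that of counting. Because the lists give positions and no reads, the depth behind a peak is unknown.

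PRDM11 belongs to the PRDM family, proteins with a PR domain related to the SET domain of histone methyltransferases, many of which act as regulators of transcription. RNA polymerase II transcribes protein-coding genes and is usually found at active promoters and along transcribed genes. An input library samples sheared chromatin before precipitation, while an IgG library samples chromatin that is pulled down without a specific target. Chromatin beside centromeres is rich in satellite repeats and heterochromatin and poor in genes, and the centromeres themselves are gaps in reference builds of this generation. In the RefSeq gene order of assembly GRCh38.p14, EPHA3, an ephrin receptor tyrosine kinase gene, is the last protein-coding gene of the short arm. PROS1, the gene of the anticoagulant protein S, is the first of the long arm. No peak was assigned to a gene and no sequence under a peak was analysed here.

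Against input, each of the 3 ChIP libraries had more peaks per 100 kb in both blocks than in the rest of the chromosome. Antibody 1 had 97.1 peaks per 100 kb in the pericentromeric block (4853 peaks in 5 Mb) and 33.5 in the long-arm block (2346 peaks in 7 Mb), against 2.34 in the remaining 185.8 Mb (4340 peaks). RNA polymerase II had 61.3 and 21.8 peaks per 100 kb in the same order of blocks (3065 and 1528 peaks), against 2.94 in the rest (5458 peaks). For antibody 2 the densities were 62.9 and 40.5 peaks per 100 kb (3144 and 2835 peaks), against 19.9 in the rest (37025 peaks). The 2 blocks therefore held 62.4% of the antibody 1 peaks of the chromosome against input, 45.7% of the RNA polymerase II peaks and 13.9% of the antibody 2 peaks. As shares of the whole lists these were 13.3%, 5.72% and 1.23%.

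As a ratio to the rest of chromosome 3, the antibody 1 density against input was 41.6 in the pericentromeric block and 14.3 in the long-arm block. The RNA polymerase II list, which did not choose the blocks but shares the input control, was 20.9 times as dense in the pericentromeric block (19.96 to 21.8) and 7.43 times as dense in the long-arm block (7.02 to 7.87). The antibody 2 list, which shares that control too, was 3.16 times (3.04 to 3.27) and 2.03 times (1.96 to 2.11) as dense. The order of the blocks was the same in all 3 libraries, with the pericentromeric block the denser. With peaks of 200 bp or wider only, the pericentromeric ratio was 112.6 for antibody 1 and 5.93 for antibody 2. The reads of the controls were not analysed here, and the part of the shared input library in these densities was not tested.

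Against IgG, the pericentromeric block held fewer peaks per 100 kb than the rest of the chromosome in all 3 libraries. Antibody 1 had 9 peaks there, a density of 0.18 per 100 kb, against 0.435 in the rest (809 peaks), a ratio of 0.413 (0.188 to 0.789). RNA polymerase II had 23 peaks, 0.46 per 100 kb against 1.74 in the rest (3232 peaks), a ratio of 0.264 (0.167 to 0.398). Antibody 2, with the most peaks, had 361, or 7.22 per 100 kb against 18.5 in the rest (34387 peaks), a ratio of 0.390 (0.351 to 0.433). The intervals of these 3 ratios lay wholly below 1. With peaks of 200 bp or wider only, the antibody 1 interval reached past 1 (ratio 0.513, 0.166 to 1.21), and the ratio was 0.166 for RNA polymerase II. From 86700001 to 90500000, where all 9 antibody 1 peaks lay, the antibody 1 ratio was 0.544 (0.248 to 1.04). The other intervals stayed below 1 there. Left of it, from 83000001, antibody 1 had 0.027 peaks per 100 kb against IgG, RNA polymerase II 0 and antibody 2 11.8. From 86700001 to 90200000 they had 0.257, 0.657 and 5.89. Antibody 1 and RNA polymerase II thus had more peaks per 100 kb there than in this flank, and antibody 2 fewer. For antibody 1 these were 9 peaks against 1. Of the 23 RNA polymerase II peaks, 17 lay between 88100001 and 88200000, so their mean does not describe the whole stretch.

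In the long-arm block the lists called against IgG had densities near those of the rest of chromosome 3. The 40 antibody 1 peaks gave 0.571 per 100 kb, a ratio to the rest of 1.31 (0.931 to 1.80), and the 129 RNA polymerase II peaks gave 1.84 per 100 kb, a ratio of 1.06 (0.882 to 1.26). Both intervals include 1. The 1420 antibody 2 peaks gave 20.3 per 100 kb, a ratio of 1.10 (1.04 to 1.16), which was above 1 by a small margin; with peaks of 200 bp or wider the interval included 1 (1.17, 0.975 to 1.40). Near-average density of the whole long-arm block hid opposite deviations within it, given further on.

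**Figure D1:**
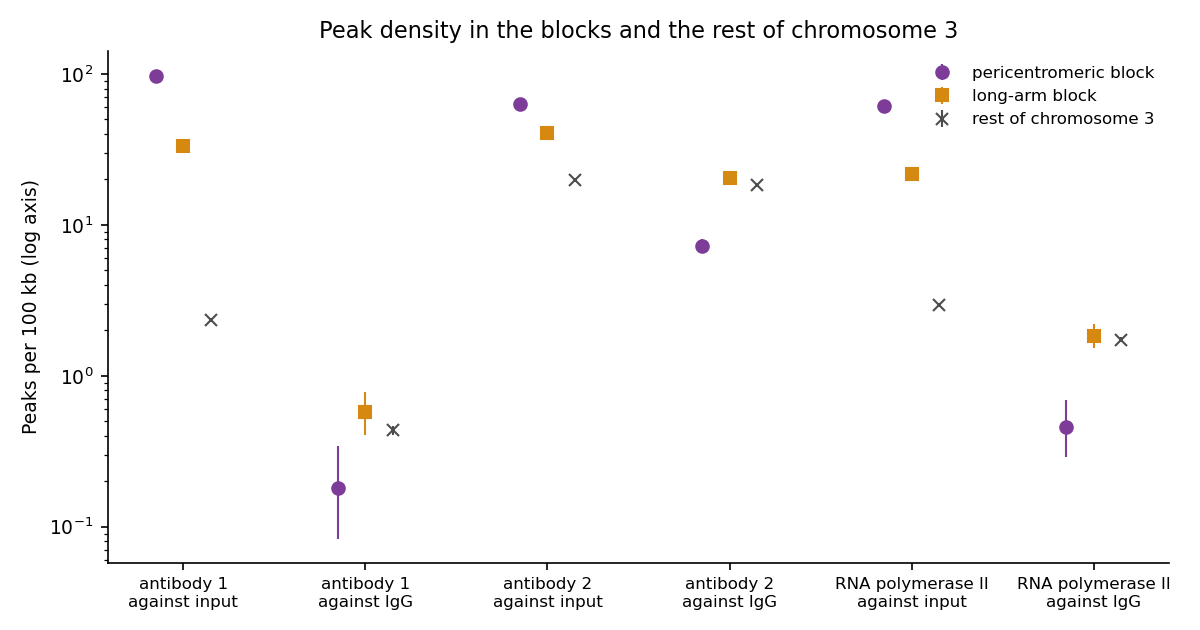
Peaks per 100 kb on a log axis for each library and control in the pericentromeric block, the long-arm block and the rest of chromosome 3, with exact 95% Poisson intervals that are narrower than the symbol where not visible. Against input both blocks lie above the rest in each library, while against IgG the pericentromeric block lies below it.

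The ratio of peaks against input to peaks against IgG, from the same ChIP library, set the blocks apart most widely for antibody 1. It was 539 (284 to 1180) in the pericentromeric block and 58.7 (42.9 to 82.3) in the long-arm block, against 5.36 in the rest of chromosome 3. These values use the list that chose the blocks, so they and their rank among the libraries are a description only. For RNA polymerase II the ratio was 133 (88.6 to 211) and 11.8 (9.89 to 14.3), against 1.69 in the rest. For antibody 2 it was 8.71 (7.81 to 9.74) and 2.00 (1.87 to 2.13), against 1.08 in the rest. With peaks of 200 bp or wider the pericentromeric antibody 2 ratio was 25.2 (16.3 to 41.0). Choice of control thus changed the number of antibody 2 peaks little over most of the chromosome and several-fold in the pericentromeric block.

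Counted in 100-kb bins, a bin was called dense under a double limit: 10 or more peaks against input, and an input count of 5 or more times the IgG count plus 1. Antibody 1 had 38 dense bins of 50 in the pericentromeric block and 35 of 70 in the long-arm block, against 4.41% of 1860 bins in the rest of chromosome 3 and 1.52% over the whole series. This count uses the list that chose the blocks. RNA polymerase II had 37 and 21 dense bins, against 0.645% of bins in the rest of the chromosome and 0.782% over the series. Antibody 2 had 35 and 9, against 0% in the rest and 0.465% over the series. For RNA polymerase II and antibody 2 the shares of block bins lay far above these backgrounds. The share over the series includes the bins of the blocks. For antibody 1 an excess follows from the choice of the blocks and supports nothing.

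Dense antibody 1 bins elsewhere on the chromosome were not spread evenly. None of the 860 bins before the pericentromeric block was dense and 1 of 560 between the blocks was, while 81 of 440 after the long-arm block were. Of the 12 dense RNA polymerase II bins outside the blocks, 11 also lay after the long-arm block. No bin outside the blocks held 100 or more antibody 1 peaks against input, whereas 40 bins of the blocks did.

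The dense peaks filled only part of each block, and their limits were not equally sharp. The core of a block, defined as the longest run of 100-kb bins that each held 20 or more antibody 1 peaks against input and with single sparser bins allowed, extended over 3.8 Mb from 86700001 to 90500000 in the pericentromeric block. In the long-arm block it extended over 2.5 Mb from 150700001 to 153200000. The cores held 99.9% of the antibody 1 peaks of the pericentromeric block against input and 85.8% of those of the long-arm block. Density in the cores was 127.5 and 80.5 antibody 1 peaks per 100 kb, 80.6 and 53.8 RNA polymerase II peaks, and 80.3 and 61.0 antibody 2 peaks, in each case with the pericentromeric core first. By the same limit of 20 peaks, the RNA polymerase II list against input gave runs from 86700001 to 90300000 and from 150700001 to 153100000, so its left borders fell in the same bins. The antibody 2 list against input gave the same pericentromeric run as antibody 1, but on the long arm its run extended over 6.9 Mb from 146600001 to 153500000, past the left limit of the block.

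At the left border of the pericentromeric core, antibody 1 and RNA polymerase II peaks against input began almost from none. The first 500 kb of the core held 723 antibody 1 peaks against input, and the 500 kb to its left held 1. For RNA polymerase II these counts were 515 inside and 0 outside, and for antibody 2 they were 434 inside and 69 outside. Core borders were placed by antibody 1 counts against input, so the antibody 1 step at each of them is partly set by definition. The first antibody 1 peak of the core lay at 86712859 to 86713014 and was 156 bp wide. Among runs of at least 10 peaks spaced no more than 5 kb apart, the first RNA polymerase II peak began at 86713655, less than 1 kb from the first antibody 1 peak at 86712859. Before it, no RNA polymerase II peak against input occurred over 4902523 bp, and no antibody 1 peak over 112246 bp. The first such antibody 2 peak began at 86701738.

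On its right side the pericentromeric core ended at the longest stretch of the chromosome without a peak in any list, 3.01 Mb from 90504566 to 93514775. The last 500 kb of the core held 412 antibody 1 peaks, 219 RNA polymerase II peaks and 355 antibody 2 peaks against input. In the next 500 kb these numbers were 6, 1 and 4. The last antibody 1 peak of the core lay at 90498716 to 90498838 and had the smallest width of its list, 123 bp.

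The long-arm core had a steep left border as well, but rose out of an already raised shoulder. Its first 500 kb held 647 antibody 1 peaks, 542 RNA polymerase II peaks and 403 antibody 2 peaks against input. The 500 kb to the left held 54, 104 and 195. The outermost antibody 1 peaks of this core lay at 150701507 to 150701629 and at 153199914 to 153200036, both 123 bp wide. The right border was graded, with 77, 21 and 9 antibody 1 peaks in the bins from 153000001, 153100001 and 153200001. There the last 500 kb of the core held 305 antibody 1 peaks and the following 500 kb held 18. For RNA polymerase II these counts were 107 and 1, and for antibody 2 they were 263 and 101. Dense runs began at 150735892 for antibody 1 and at 150740147 for RNA polymerase II and ended at 153079828 and 153066706, whereas those of antibody 2 began earlier, at 150622815, and ended later, at 153294966.

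The positions chosen as limits of the blocks did not mark these steps. The 1 Mb left of the pericentromeric block held 5 antibody 1 peaks against input, and the 0.7 Mb inside the block before its core held 1. The 1 Mb left of the long-arm block held 23 and the 1 Mb to its right 11.

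**Figure D2:**
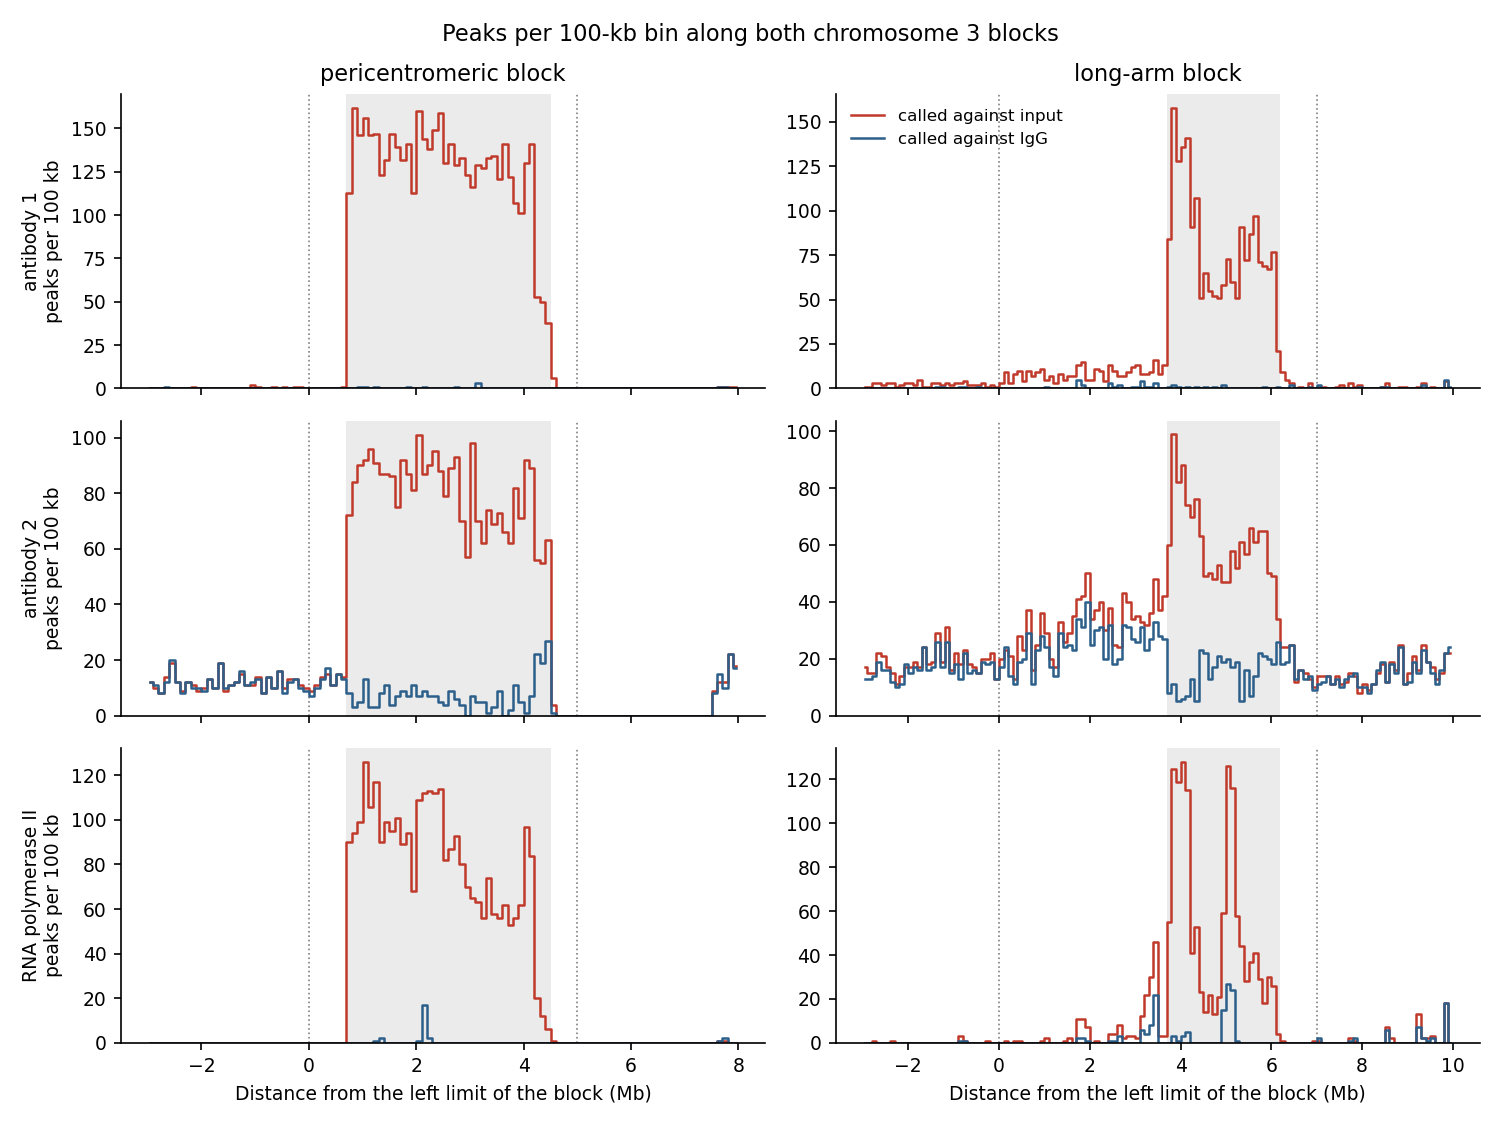
Peaks per 100-kb bin against distance from the left limit of each block in Mb, for the lists called against input (red) and against IgG (blue) of each library, with 3 Mb on either side, cores shaded and block limits dotted. Input-list density steps up at the left edge of both cores in all 3 libraries, and antibody 2 density against IgG steps down there.

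Along each block the antibody 1 density against input was described by a few level stretches, found by Poisson segmentation of the 100-kb bins. In and around the pericentromeric block there were 4. Left of the core, from 83000001 to 86700000, the density was 0.243 peaks per 100 kb. From 86700001 to 90200000 it was 134.4 (SD 14.8 over 35 bins, lowest 101, highest 162). The last 3 bins of the core, from 90200001 to 90500000, averaged 47, and beyond them the density was 0.286. Adjacent bins are not replicates, and the SD describes the evenness of the plateau only.

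The long-arm block had 6 levels and a less even profile. Density was 2.35 antibody 1 peaks per 100 kb before 147100000 and 8.58 from 147100001 to 150700000. It then reached 120.7 from 150700001 to 151400000 and was 67.5 from 151400001 to 153100000. From 153100001 to 153400000 it was 11.7 and after that 0.917. The first level of the core thus came near the pericentromeric plateau of 134.4, and the longer second level lay well below it.

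RNA polymerase II density against input changed at the borders of the cores but varied more within them. It was 86.5 peaks per 100 kb on the main pericentromeric level (SD 20.9, 53 to 126 per bin) and 12.7 in the last 3 bins of that core. On the levels of the long-arm core it was 90.9 (41 to 128 per bin) and 41.5 (13 to 126 per bin). Over the 38 bins of the pericentromeric core, counts of antibody 1 and RNA polymerase II against input had a Pearson's r of 0.87 and a Spearman's rho of 0.78. Over the 25 bins of the long-arm core the values were 0.69 and 0.62. Neighbouring bins share the input library and their position along the chromosome, so these correlations are descriptions without a test.

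At the left border of both cores, antibody 2 was higher inside the core against input and lower inside it against IgG. On the main pericentromeric level it had 82.2 peaks per 100 kb against input and 5.89 against IgG, while left of the core it had 12.03 against input and 11.8 against IgG. In the last 3 bins of the core, where antibody 1 was sparser, the density was 58.0 against input and 22.7 against IgG. Beyond that right border, in the stretch that is mostly empty in all lists, it was 2.2 and 2.09, lower against both controls. In the long-arm core the first level had 78.4 against input and 7.86 against IgG, and the second level had 55.4 and 17.3. On the shoulder before that core the density was 32 against input and 25.03 against IgG, both higher than the 18.7 and 16.6 to the left of the shoulder. Within each core, the level with more antibody 1 peaks against input thus had fewer antibody 2 peaks against IgG.

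The counts of single bins gave a similar picture. These counts leave out bins with no peak in any list. In the 40 bins whose antibody 1 count against input was 100 or more, the median number of antibody 2 peaks against IgG was 6 (range 0 to 13). In the 23 block bins with 20 to 99 it was 19, in the 35 with 5 to 19 it was 26, and in the 18 with fewer than 5 it was 14. In the rest of chromosome 3 the 12 bins with 20 to 99 antibody 1 peaks had a median of 29 antibody 2 peaks against IgG, the 326 with 5 to 19 had 25, and the 1496 with fewer had 16. In the blocks the median was therefore highest in bins with 5 to 19 antibody 1 peaks and lowest in those with 100 or more. The rest had no bin with 100 or more, so that class has no counterpart there. Among the classes present in the rest, the median was higher in each denser class. The classes were set by the list that chose the blocks, so this contrast is a description. Across core bins, antibody 1 against input and antibody 2 against IgG had r = -0.74 and rho = -0.33 in the pericentromeric core and r = -0.77 and rho = -0.77 in the long-arm core. Antibody 2 against input instead had positive values against the same antibody 1 list, with r = 0.63 and rho = 0.56 in the pericentromeric core and r = 0.89 and rho = 0.74 in the long-arm core. The last 3 bins of the pericentromeric core stood apart, with 38 to 53 antibody 1 peaks against input and 19 to 27 antibody 2 peaks against IgG. Its other 35 bins had 101 to 162 and 0 to 13. Correlations without those 3 bins were not computed.

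**Figure D3:**
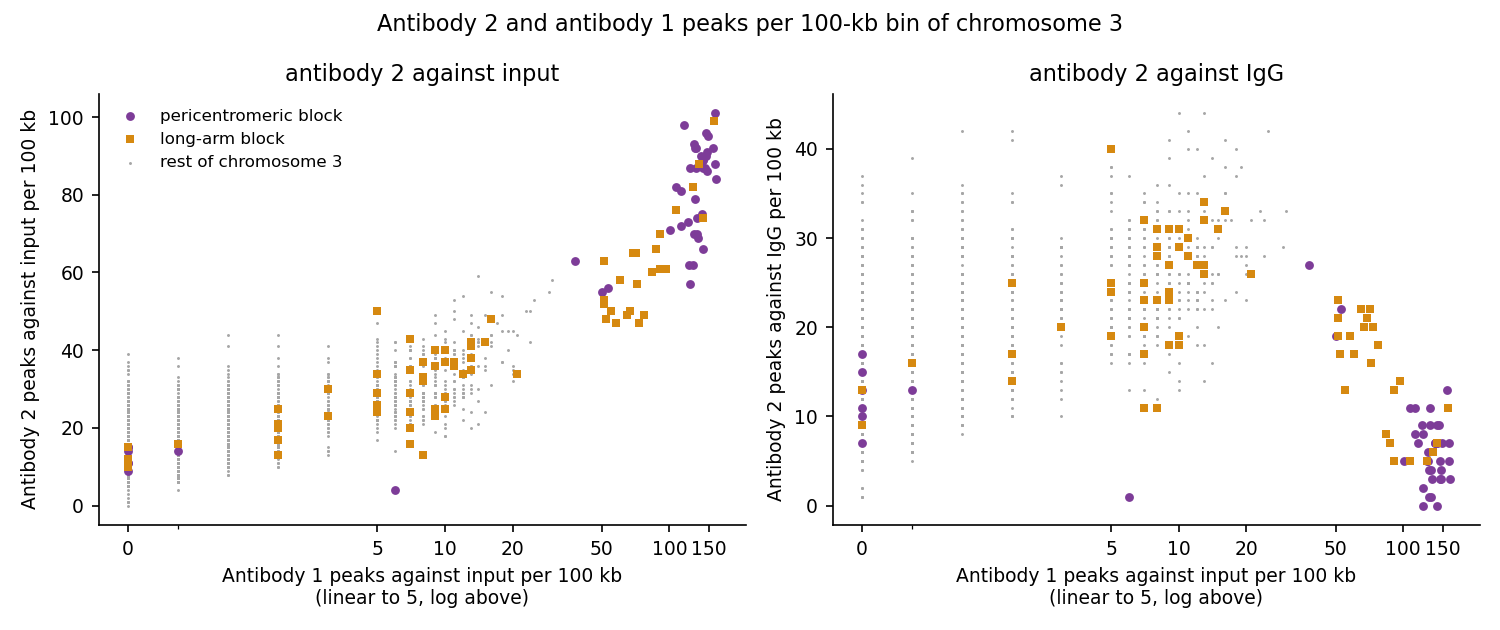
Antibody 2 peaks per 100-kb bin against antibody 1 peaks called against input in the same bin (x axis linear to 5 and logarithmic above), with antibody 2 called against input on the left and against IgG on the right, for bins of both blocks and of the rest of chromosome 3. Bins with 100 or more antibody 1 peaks hold 57 to 101 antibody 2 peaks against input but 0 to 13 against IgG.

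Seen by stretch, the IgG lists placed the long-arm block in 3 unequal pieces. Left of the core, antibody 2 had 24.8 peaks per 100 kb against IgG, 1.34 times the rest of the chromosome (1.25 to 1.43). In the core it had 15, a ratio of 0.811 (0.730 to 0.897), and right of the core 15.9, a ratio of 0.858 (0.715 to 1.02). RNA polymerase II against IgG went the other way, with 1.35 per 100 kb left of the core (ratio 0.777, 0.575 to 1.03) and 3.16 in the core (ratio 1.82, 1.43 to 2.27). It had no peak in the 0.8 Mb right of the core. Its 79 core peaks were clustered, with 15, 27 and 24 in the adjacent bins from 151900001, 152000001 and 152100001. The core ratio therefore does not describe the core as a whole. Antibody 1 against IgG had 25 peaks left of the core, 12 in it and 3 to its right, with ratios of 1.55 (0.998 to 2.31), 1.10 (0.567 to 1.94) and 0.861 (0.177 to 2.53).

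Antibody 1 peaks against input were wider in the blocks than elsewhere on the chromosome. Their median width was 249 bp in the pericentromeric block and 178 bp in the long-arm block, against 141 bp in the rest. The share at the smallest width of the list, 123 bp, was 9.75% (8.93% to 10.6%) and 18.7% (17.2% to 20.4%), against 36.0% in the rest (34.6% to 37.5%). Peaks of at least 500 bp made up 16.7% and 5.75%, against 3.76%. RNA polymerase II peaks against input had medians of 222 and 209 bp in the blocks and 225 bp in the rest. Wide ones were rarer in the blocks, where 10.7% and 11.3% reached 500 bp, against 18.2% in the rest. For antibody 2 the median was 123 bp in all 3 regions, and 68.9% and 73.3% of its peaks had that width in the blocks, against 78.3% in the rest.

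Peaks were so close together in the cores that they covered a large share of the sequence. Antibody 1 peaks against input covered 41.5% of the pericentromeric core and 19.3% of the long-arm core, against 0.445% of the rest of the chromosome. RNA polymerase II peaks covered 23.5% and 15.5%, against 1.03%, and antibody 2 peaks covered 12.4% and 9.19%, against 2.78%. The median gap between antibody 1 peaks was 244 bp in the pericentromeric core, where 90.7% of gaps were under 1 kb, and 529.5 bp in the long-arm core, against 9959 bp in the rest. The longest antibody 1 gap was 15.7 kb in the pericentromeric core, from 90355408 to 90371059, and 19.4 kb in the long-arm core, from 150716484 to 150735891. Both lay near a border of their core.

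The densest antibody 1 bin was the second from the left in each core. From 86800001 to 86900000 there were 162 antibody 1, 84 antibody 2 and 94 RNA polymerase II peaks against input, while against IgG there were 0, 3 and 0. From 150800001 to 150900000 the counts were 158, 99 and 125 against input and 2, 11 and 3 against IgG. The next densest antibody 1 bins, from 88000001 to 88100000 and from 88400001 to 88500000 in the pericentromeric core, held 160 and 159. In the long-arm core those from 151100001 to 151200000 and from 151000001 to 151100000 held 141 and 136.

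With so much sequence covered, overlap between libraries was read beside the share of bases that the other list covers. In the pericentromeric core, 55.2% of antibody 1 peaks against input overlapped an RNA polymerase II peak, and in the long-arm core 47.9% did, against 23.9% in the rest of chromosome 3. By midpoints the antibody 1 peaks lay inside RNA polymerase II peaks in 40.6% and 36.6% of cases, against 20.9% in the rest. These were 1.73 and 2.36 times the share of bases covered, against 20.2 times in the rest. The blocks thus had more overlap in percent and less of it relative to coverage. This ratio has a ceiling that is lower where the other list covers more bases. Part of its difference between cores and rest is therefore fixed by density, and it is no measure of weak overlap in the cores.

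Antibody 2 gave the same contrast. Its peaks against input overlapped 39.1% of antibody 1 peaks in the pericentromeric core and 28.9% in the long-arm core, against 22.4% in the rest. Requiring 50% of the antibody 1 peak to be covered left 11.2% and 11.3%. The midpoint shares of 16.2% and 13.8% were 1.30 and 1.498 times the covered share, against 12.7% and 4.55 times in the rest. In the reverse direction, antibody 1 peaks contained the midpoints of 79.01% and 51.7% of RNA polymerase II peaks, which was 1.90 and 2.68 times the covered share, against 10.6% and 23.9 times in the rest. Antibody 1 peaks overlapped by both other libraries were the widest, with a median of 428 bp in the pericentromeric core and 287 bp in the long-arm core, while those overlapped by neither had medians of 173 and 160 bp. Wider peaks can reach more neighbours, and how much of the overlap follows width was not tested.

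**Figure D4:**
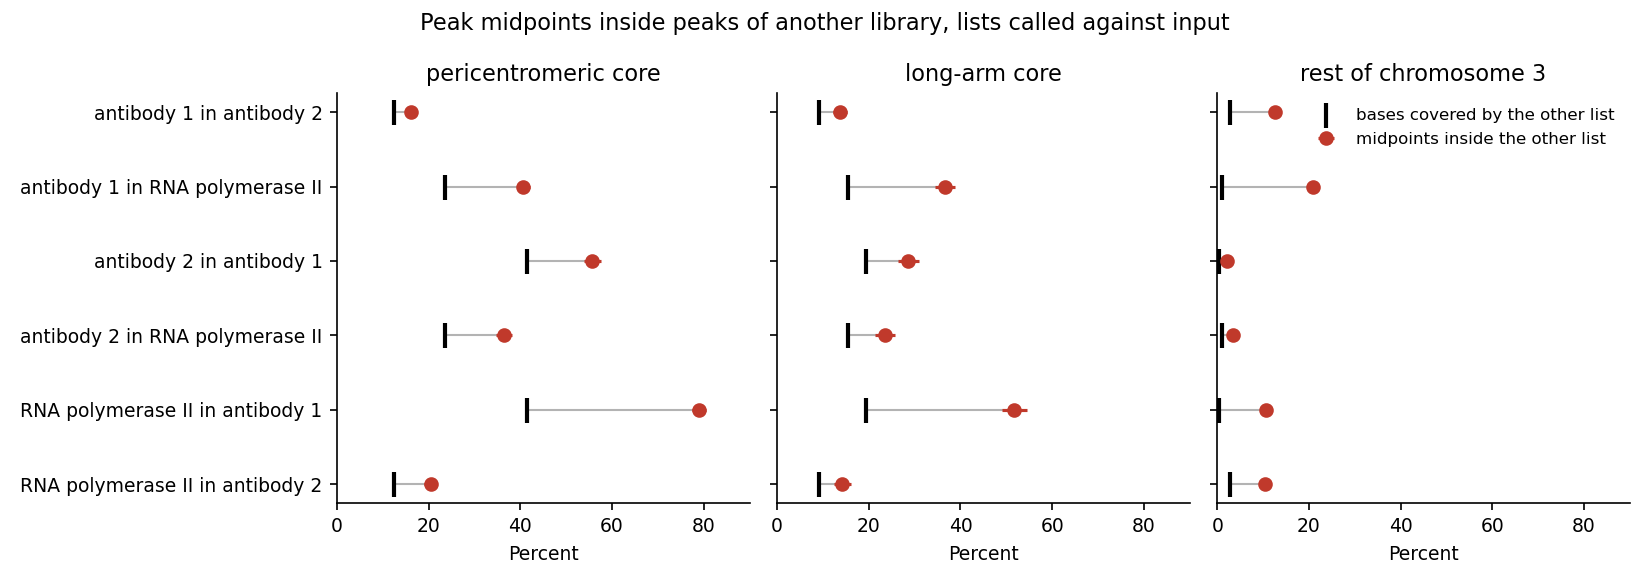
Percent of peak midpoints that lie inside peaks of another library (red, with exact 95% intervals) and percent of bases that the other library covers (black bars), for lists called against input, in both cores and the rest of chromosome 3. In the pericentromeric core the midpoint share is 1.30 times the covered share for antibody 1 in antibody 2 (16.2% and 12.4%) and 1.90 times for RNA polymerase II in antibody 1 (79.01% and 41.5%), against 4.55 and 23.9 times in the rest. The ceiling of this ratio is lower where more bases are covered.

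Peaks called against IgG in the blocks were nearly all found again against input. This was so for 9 of 9 and 40 of 40 antibody 1 peaks in the pericentromeric and the long-arm block, for 23 of 23 and 129 of 129 RNA polymerase II peaks, and for 359 of 361 and 1397 of 1420 antibody 2 peaks. In the rest of chromosome 3 the shares were 83.3%, 92.3% and 94.6%. Lists against input covered 31.6% and 7.74% of the blocks for antibody 1, against 0.445% of the rest. For RNA polymerase II they covered 17.9% and 6.34%, against 1.03%, and for antibody 2 9.69% and 5.96%, against 2.78%. Overlap of 1 bp is met more easily where more bases are covered. How much of the higher shares follows coverage was not tested. In the reverse direction the share is limited by the sizes of the lists. The cores held 9 and 12 antibody 1 peaks against IgG and 4846 and 2013 against input, the list that chose the blocks. All 9 and 12 were found again, so low reverse shares follow from these counts and are a description only. Of antibody 1 peaks against input, 0.186% in the pericentromeric core and 0.596% in the long-arm core overlapped an antibody 1 peak against IgG, against 14.8% in the rest. On the shoulder left of the long-arm core it was 7.05%.

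All 9 antibody 1 peaks of the pericentromeric block against IgG lay in the core, between 86987873 and 89164029. In order they began at 86987873 (132 bp), 87039665 (132 bp), 87276211 (356 bp), 87812892 (221 bp), 88198771 (372 bp), 88786132 (147 bp), 89117060 (144 bp), 89156510 (558 bp) and 89163639 (391 bp). Each lay within or across a wider antibody 1 peak against input, of 290 to 1509 bp. All 9 overlapped an RNA polymerase II peak against input and 2 of 9 one against IgG, those at 87276211 and 88198771. None overlapped an antibody 2 peak against IgG, for which 9 peaks allow a share of up to 33.6%, and 4 overlapped one against input. In the rest of chromosome 3, 47.5% of antibody 1 peaks against IgG overlapped antibody 2 and 59.8% overlapped RNA polymerase II against the same control.

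The 40 antibody 1 peaks of the long-arm block against IgG split by place. On the shoulder left of the core, 13 of 25 overlapped an antibody 2 peak against IgG (52%, 31.3% to 72.2%) and 16 of 25 an RNA polymerase II peak (64%, 42.5% to 82.0%), close to the 47.5% and 59.8% of the rest of the chromosome. In the core these counts were 2 of 12 (16.7%, 2.09% to 48.4%) and 4 of 12 (33.3%, 9.92% to 65.1%). The intervals of core and shoulder overlap, and no difference between them is shown at these numbers.

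The widest of these 40 peaks were shared by all 3 libraries. The peak from 148708785 to 148710215 was 1431 bp wide and overlapped an antibody 2 peak of 1291 bp and RNA polymerase II peaks of up to 727 bp, all against IgG. In the core, the peak from 151986309 to 151987415 (1107 bp) overlapped antibody 2 peaks of up to 294 bp and an RNA polymerase II peak of 1560 bp. The other three of the widest, at 150127391 to 150128326 (936 bp), 150263549 to 150264352 (804 bp) and 149688757 to 149689551 (795 bp), lay on the shoulder and likewise overlapped both other libraries against IgG. Their antibody 2 partners were up to 717, 367 and 352 bp wide and their RNA polymerase II partners up to 704, 868 and 216 bp.

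RNA polymerase II peaks against IgG occurred in clusters. In the pericentromeric block, 21 of 23 lay in the 3 fullest bins, and most formed runs of at least 5 peaks spaced no more than 10 kb apart, with 5 from 88099989 to 88108886 and 10 from 88189292 to 88200826. The second run held the widest of these peaks, 1495 bp from 88198025 to 88199519, which overlapped the antibody 1 peak of 372 bp at 88198771. Both lay in the widest RNA polymerase II peak called in the block against input, 6253 bp from 88193970 to 88200222. That peak also contained the widest antibody 1 peak against input, 2353 bp from 88194859 to 88197211. The next widest RNA polymerase II peaks against IgG, 1254 bp from 88107633 to 88108886 and 776 bp from 87276164 to 87276939, overlapped antibody 1 peaks against input of 2284 and 1367 bp.

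In the long-arm block, 73 of 129 RNA polymerase II peaks against IgG lay in the 3 fullest bins, and most again formed runs. On the shoulder the runs extended from 150349219 to 150354072 (5 peaks) and from 150455662 to 150484441 (20 peaks). In the core they extended from 151095659 to 151102590 (5), from 151911505 to 151923516 (9), from 151986098 to 152080499 (32) and from 152164412 to 152202541 (18). The run of 32 peaks spanned 94.4 kb and held 121 RNA polymerase II, 71 antibody 1 and 45 antibody 2 peaks against input. Against IgG it held 1 antibody 1 peak and 20 antibody 2 peaks. The widest RNA polymerase II peaks against IgG in the block were the 1560 bp peak of this run and one of 1546 bp from 150480516 to 150482061, which overlapped peaks of both PRDM11 antibodies against IgG. The run of 18 had no antibody 1 peak against IgG, and its widest RNA polymerase II peak, 1270 bp from 152190133 to 152191402, overlapped no peak of either PRDM11 antibody in any list.

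Antibody 2 peaks against IgG were narrow in the pericentromeric block, as they were in the rest of chromosome 3. The share at the smallest width, 123 bp, was 79.8% in the block and 78.3% in the rest. Of the 361 in the block, 274 lay in the core, and the 3 fullest bins, which were the last 3 of the core, held 68. The widest was 355 bp, from 90317842 to 90318196, and overlapped no peak of antibody 1 or RNA polymerase II in any list. The next, of 277 bp from 89489604 to 89489880 and of 271 bp from 90407846 to 90408116, overlapped antibody 1 and RNA polymerase II peaks against input only. In the long-arm block 375 of 1420 lay in the core. The widest there were 1291 bp from 148708883 to 148710173 and 717 bp from 150127476 to 150128192, both at wide antibody 1 peaks against IgG, and 428 bp from 152733695 to 152734122, which overlapped an antibody 1 peak of 155 bp against input and no RNA polymerase II peak.

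**Figure D5:**
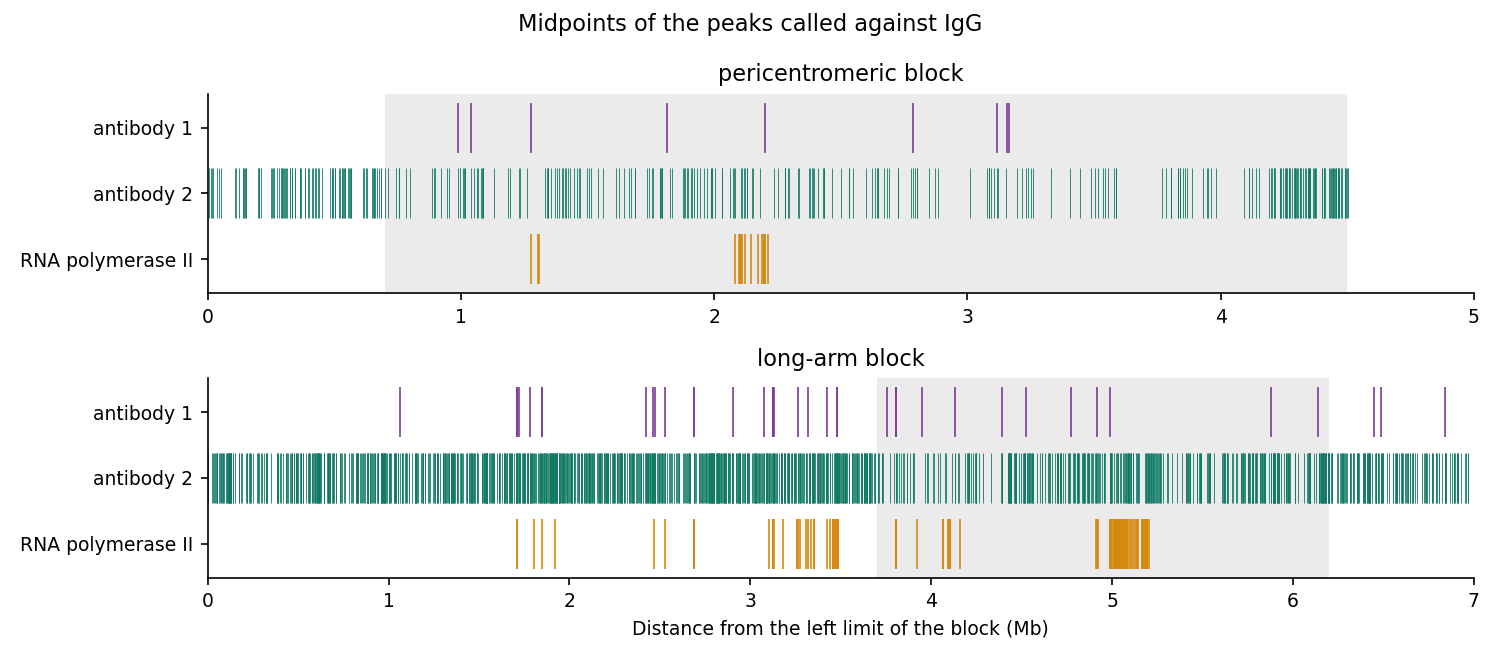
Midpoints of all peaks called against IgG, by library, against distance from the left limit of the pericentromeric block (top) and the long-arm block (bottom) in Mb, with the cores shaded. All 9 antibody 1 peaks of the pericentromeric block lie in the core, most RNA polymerase II peaks form a few clusters, and antibody 2 peaks thin out across the pericentromeric core except in its last 3 bins.

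Among peaks against input, the widest lay at different places in the 2 blocks. In the pericentromeric block the 3 widest antibody 1 peaks, of 2353, 2284 and 2259 bp from 88194859, 88106941 and 88366318, overlapped no antibody 1 peak against IgG. The 3 widest of the long-arm block, of 2016, 1753 and 1635 bp from 148708384, 149687863 and 150127289, each overlapped 2 antibody 1 peaks against IgG and lay on the shoulder outside the core. The widest antibody 2 peaks against input showed the same difference. Those of the pericentromeric block, 864 bp from 87137711, 631 bp from 88279934 and 630 bp from 87611527, overlapped no antibody 1 peak against IgG. Those of the long-arm block, 1530 bp from 148708883, 882 bp from 149688225 and 862 bp from 150263580, each overlapped at least 1. The widest RNA polymerase II peaks after the 6253 bp peak were 3481 bp from 88179724 and 3027 bp from 88187555, and in the long-arm block 2541 bp from 151985980, 2187 bp from 152189594 and 2166 bp from 152187143.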

How the data were processed

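Per the submitters' processing notes, Bowtie 0.12.7, SAMtools, MACS2 2.0.9 and build hg19 were used; their settings are not given in the sources used here. The deposited lists hold 3 columns per peak (chromosome, start, end) and no score; list names give the control and q 0.1. Starts counted from 0 are printed counted from 1.

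Members, limits and regions were chosen with earlier results of these data known; levels and runs were added after seeing the data. Peaks were assigned by midpoint. The rest of chromosome 3 extends from the first to the last peak of any list, without the blocks. Overlap meant at least 1 bp. Density ratios have conditional binomial intervals, shares Clopper-Pearson intervals. Poisson segmentation used a penalty of 20 for each added level and started 3 Mb outside the blocks. Named in each block were all antibody 1 peaks against IgG if 10 or fewer and otherwise the 5 widest, the 3 widest peaks of every other list, the outermost antibody 1 peaks of the core and the 3 densest antibody 1 bins. Genes, planned with an hg19 annotation, were not used here.

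On simulated data, 20 of 20 cores and 400 of 400 planted overlaps were found. The simulated cores had Poisson counts at levels like those found here. Real bins varied more, with an SD of 27.4 at a mean of 120.7 on the first level of the long-arm core. The simulation therefore does not show how exactly the reported borders are placed. For 30 of 30 pairs of lists the overlap count equalled that of bedtools 2.31.1. Python 3.11.15, NumPy 2.4.6, pandas 2.3.3, SciPy 1.17.1 and matplotlib 3.10.9 were used. Alternatives concerned peak width, bins, overlap, control and the choice of the rest.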

Additional observations from a re-analysis of the deposited data

How the results depend on the processing

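Of 165 alternatives computed for 51 results, 102 stayed within the reported value's own limits and 63 moved past them. The limits were the 95% interval for ratios and shares, 1.5 times for counts of bins or levels, and less than 1 bin for borders. No ratio whose interval excluded 1 changed side; the antibody 1 density ratio of both blocks against IgG, whose interval included 1, was 0.938 as reported and 1.07 with peaks of 200 bp or wider. With peaks of 200 bp or wider, the density ratio of both blocks to the rest of chromosome 3 against input was 62.1 for antibody 1 (25.7 as reported) and 4.14 for antibody 2 (2.50). With dense bins left out of the rest antibody 1 had 33.1, antibody 2 had 2.59 and RNA polymerase II had 14.8 (13.03). For antibody 2, the ratio of peaks against input to peaks against IgG (3.36) was 5.9 with peaks of 200 bp or wider and 3.63 by bases covered, and the share found again against input (98.6%) was 95.3% with both lists limited to 200 bp or wider. Overlap depended on the settings most. The share of antibody 1 peaks in antibody 2 peaks over both blocks (35.3%) was 11.3% with 50% of the peak covered, 30.6% with both lists against IgG, 3.83% with antibody 2 alone against IgG and 12.9% with both limited to 200 bp or wider. In RNA polymerase II peaks (51.2%) these shares were 37.1%, 44.9%, 1.15% and 48.8%. The left border of the pericentromeric core stayed in the bin that begins at 86700001 under every setting tried. Its right border (90500000) was 90400000 with 40 peaks per bin and 90300000 from RNA polymerase II. The left border of the long-arm core (150700001) was 150600001 in 50-kb bins and 150400001 with 10 peaks per bin. Its right border (153200000) was 153100000 with 40 peaks per bin or from RNA polymerase II, and 153079828 from the outermost peak of the runs, a setting chosen after seeing the data. In 200-kb bins, fewer by construction, 37 antibody 1, 21 antibody 2 and 31 RNA polymerase II bins were dense (73, 44 and 58 in 100-kb bins). The cause of the other moves was not tested. No paired analysis was possible because each antibody has 1 library, and none could be left out. Depth is unknown and limits every value to counting error over peaks.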
